A study of Mus musculus with 6 samples.

Results

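The p53 circuit genes described here are Trp53, its negative regulators Mdm2 and Mdm4, and 7 genes that p53 is known to activate (Ccng1, Phlda3, Ddb2, Trp53inp1, Zmat3, Aen and Sesn1). The set is defined by gene name, and 9 of the 10 were found among 23185 genes measured with a single gene symbol. Trp53 itself is not analysed here. The cells were a line of group 2 innate lymphoid cells (ILC2s, lymphocytes that secrete type 2 cytokines and carry no rearranged antigen receptor) from C57BL/6J mice, grown with 10 ng/ml each of IL-2 and IL-33. Both groups received a lentiviral CRISPR construct with GFP, carrying a guide against Myc in the knockout group or a non-targeting guide in the control group, and GFP-positive cells were sorted 6 days after transduction. Their total RNA was hybridised to 6 Affymetrix arrays (3 per group), and the comparison asks how transcripts differ between Myc knockout and control cells. Nothing in the labels tells whether replicate arrays stem from separate cultures, so every p-value measures the spread between these samples only, and that spread may be technical.

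p53 is a transcription factor that is held at a low level in unstressed cells, because MDM2 ubiquitinates it and MDM4 blocks its activation domain. DNA damage, nucleolar stress or strong oncogene activity, MYC included, can release p53 from MDM2. It then raises genes of arrest, repair, metabolism and cell death, and Mdm2 is itself a target, which closes a feedback loop. Much of this control acts on protein, which arrays do not measure.

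Promoter sequences are shown to make visible where letters of the p53 motif lie near the starts of these genes. RefSeq start sites (GRCm38.p6) gave 9 windows of 300 bases, from 250 bases before to 50 bases after a start, for 6 of the 9 measured genes, namely Mdm2, Mdm4, Ccng1, Phlda3, Aen and Sesn1. The windows were searched for exact matches to the p53 consensus decamer, the 10-base unit that p53 binds in pairs; the consensus reads the same on both strands. A match stood in 5 of the 9 windows, against 8.36% of 32851 windows of all genes, and 2 of the 5 are overlapping windows of Aen that share 1 match. Of 39 windows of 29 other p53 targets, listed further below, 7 held a match. Capitals mark the decamers in the lines that follow, each written 5′ to 3′ on the gene's own strand.

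Mdm2 (chr10:117710915-117710964, minus strand): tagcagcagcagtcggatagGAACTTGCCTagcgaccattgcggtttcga

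Ccng1 (chr11:40755442-40755491, minus strand): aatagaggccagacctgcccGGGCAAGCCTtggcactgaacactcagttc

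Aen (chr7:78895927-78895956, plus strand): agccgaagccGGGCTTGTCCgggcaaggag

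Sesn1 (chr10:41887246-41887295, plus strand): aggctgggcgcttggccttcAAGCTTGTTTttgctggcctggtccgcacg

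Cdkn1a (chr17:29090896-29090947, plus strand): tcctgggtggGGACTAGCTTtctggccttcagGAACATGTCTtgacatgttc

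The decamer begins 186 bases before the annotated start in Mdm2, 185 in Ccng1 and 173 in Sesn1, where it belongs to the downstream of its 2 start sites. In Aen it begins 121 bases before the later start and 10 bases past the earlier one. Cdkn1a, the gene of the CDK inhibitor p21 and outside the chosen set, is shown because it is the best-known p53 target and fell in these data. Its 2 exact matches are 12 bases apart, and the first begins 73 bases before its upstream start and 2863 bases before its downstream start. A pair of exact matches, with 0 to 13 bases between, stood in 0.0731% of all windows and in none of the 9. Near matches were not searched for. A decamer with a mismatch, also one beside the printed capitals, was therefore neither counted nor capitalised. The windows of Mdm4 and Phlda3 held no match, and those of Ddb2, Zmat3 and Trp53inp1 were not used here. The E-box CACGTG, the palindrome that MYC binds with MAX, stood in 1 of the 9 windows, that of Aen's later start and outside the bases printed, against 7.15% of all windows. A match describes letters and is not a measured binding site.

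Some facts of the whole series bear on what follows. Myc mRNA went against its label: it was higher in all 3 arrays labelled Myc knockout than in any control (9.55 to 9.79 against 9.27 to 9.39, log2 difference 0.36 ± 0.080 SE, limma's adjusted p = 0.127). A frameshift can leave mRNA in place, so this is a weak check. All directions below therefore rest on the labels. Values are log2 RMA values (robust multi-array average, the authors' normalisation), whose array medians lay between 3.27 and 3.34. Levels of different genes are not comparable as mRNA amounts on this scale. Sums over genes, percentiles and placings against array medians describe array signal only. Small p-values were commoner among brighter genes. In a fit of only the genes at or above the median level, 992 were higher and 1795 lower at limma's unadjusted p under 0.05. Over all genes it was 1616 and 1834. The share of all genes with such a p-value is therefore a low background for lists of mostly brighter genes. Of 11 ILC2 markers, 9 were above the array medians, among them Gata3, Il5 and Il13, while Thy1 and Il17rb were not. The summed linear level of all 11 was 8791 to 9525 in controls and 9595 to 10154 in the arrays labelled Myc knockout. Such a sum is weighted towards its brightest genes, here Il2ra and Il13. In limma, 7 of the 11 (63.6%, against 14.9% of all genes) had an unadjusted p under 0.05, 4 higher and 3 lower. Gata3, Il7r and Ptprc were the lower ones, and Il5 passed the adjusted threshold as higher (limma's adjusted p = 0.0386). The median log2 difference of the 11 was 0.037, with 6 positive and 5 negative. Cd3e, Ms4a1 and Adgre1, defining markers of T cells, B cells and macrophages, were near or below the lower quartiles of 2.04 to 2.13. In contrast, Cd3g, Cd8a, Cd28, Prf1 and Itgam were above the array medians on all 6 arrays. By mean level, 4 of 7 T cell markers and 3 of 6 NK cell and ILC1 markers were below the array medians. So were 3 of 3 B cell markers and 5 of 6 myeloid and mast cell markers. Cd3g read 5.60, 5.57 and 5.25 against 4.83, 5.10 and 5.19, separate groups without a call. The same sum over 7 T cell markers was 98.8 to 106 in controls beside 86.4 to 104, and that of 3 B cell markers was 11.7 to 13.2 and 12.2 to 13.7. For 6 NK cell and ILC1 markers it was 196 to 216 and 208 to 240, and Klrk1 rose (limma's adjusted p = 0.0473). Most of that sum came from Prf1 (log2 values 7.34 to 7.64). For 6 of 7 myeloid and mast cell markers it was 106 to 123 and 73.5 to 86.1. Most of it came from Itgam, while the other 5 were below the array medians, so the separate ranges reflect mainly that gene. Itgam had a log2 difference of −0.63 ± 0.10 and did not pass. The part of other cells in the results below was not tested, and in bulk RNA fewer cells of a type and less RNA per cell cannot be told apart.

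None of the 9 genes was called higher or lower in the arrays labelled Myc knockout. In limma 0 passed a Benjamini-Hochberg adjusted p under 0.05 over all genes, a threshold that 0.453% of all genes passed, 0.254% as higher and 0.198% as lower. At an unadjusted p under 0.05 there was 1 of 9 (11.1%), Ddb2 on the lower side, against 14.9% of all genes (6.97% higher and 7.91% lower). The groups did not overlap for 1 of 9, again Ddb2, against 19.8% of all genes (9.25% higher and 10.6% lower). Both counts give shares no larger than the background of both directions together. On the lower side the 11.1% stands beside 7.91% and 10.6%, and it rests on Ddb2 alone. The median log2 difference of the 9 was −0.021, beside 0.0077 over all genes. Over the genes at or above the median level, where all 9 lie, it was −0.030. Under cyclic loess the median of the 9 was 0.0039, so the list has no settled direction. The median size of a difference regardless of sign was 0.061, beside 0.097 over all genes.

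**Figure D1:**
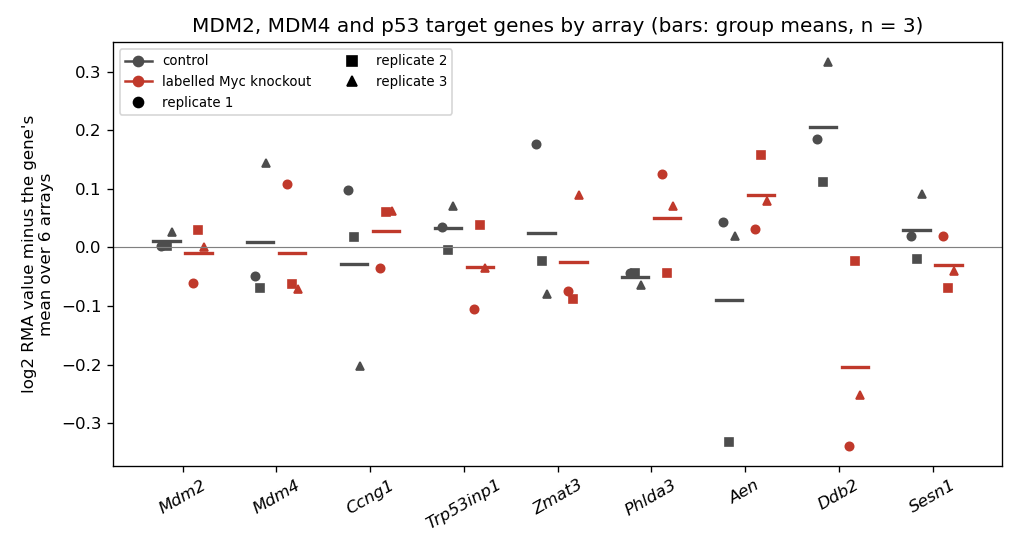
Log2 RMA value of each gene minus its own mean over the 6 arrays, in the 3 control arrays (grey) and the 3 arrays labelled Myc knockout (red), with marker shapes for replicates and bars for group means. The groups overlap for every gene except Ddb2, whose values labelled Myc knockout (5.06 to 5.38) all lie below the control values (5.51 to 5.72).

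Neither inhibitor of p53 passed. Mdm2 encodes the E3 ligase that marks p53 for degradation; its log2 values were 7.56, 7.56 and 7.59 in control arrays, beside 7.50, 7.59 and 7.56 in those labelled Myc knockout. The groups overlapped, and the lowest as well as the highest value came from arrays labelled Myc knockout. Its difference was −0.021 ± 0.055 (SE, n = 3 per group), and the 95% confidence interval of the fold ran from 0.900 to 1.08. The exact permutation test (two-sided) gave p = 0.7, where 0.1 is the smallest possible with 3 arrays a side. The whole range over the 6 arrays was 0.090, the narrowest of the 9 genes, and the pooled SD of 0.034 compares with a median of 0.070 among genes of similar level.

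Mdm4, the MDM2 relative that binds p53 without degrading it by itself, read 6.88, 6.86 and 7.08 in control arrays, set against 7.04, 6.87 and 6.86 under the knockout label. Each group held a single high array and a pair of lower ones, and the ranges coincided almost fully. The difference was −0.018 ± 0.086, with a fold interval of 0.856 to 1.14. Mdm2 and Mdm4 changed sign with the scaling, to 0.0039 and 0.015 under cyclic loess, so neither had a direction.

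Targets that act back on p53 or on RNA did not pass, and their groups overlapped. Ccng1 encodes cyclin G1, an atypical cyclin that recruits the phosphatase PP2A and promotes MDM2 activity; control arrays read 8.07, 7.99 and 7.77, those labelled Myc knockout 7.94, 8.03 and 8.03. The lowest and the highest of the 6 values were both controls, and the difference was 0.057 ± 0.090 with a fold interval of 0.896 to 1.21. Trp53inp1, whose product aids p53 phosphorylation and autophagy, read 8.08, 8.04 and 8.11 against 7.94, 8.08 and 8.01, a difference of −0.068 ± 0.062. Zmat3, a zinc finger gene whose product binds RNA and affects splicing, read 6.09, 5.89 and 5.83 against 5.84, 5.82 and 6.00. Each group held 1 high array, and the difference was −0.049 ± 0.090.

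Phlda3 and Aen had the 2 positive differences above 0.1. Phlda3, which encodes a small protein that competes with AKT for membrane lipids, read 3.75, 3.75 and 3.73 in control arrays, set against 3.92, 3.75 and 3.86 under the knockout label. The control values were tightly grouped and 1 array labelled Myc knockout lay among them. The gene is dim, at percentile 55.1 of all genes by mean level. The difference was 0.10 ± 0.064 (limma's adjusted p = 0.496); without Myc knockout replicate 2 its unadjusted p was 0.0399, still with no call over all genes. Aen, the gene of an apoptosis-enhancing nuclease, read 4.52, 4.14 and 4.50 against 4.51, 4.63 and 4.56. The single low value of control replicate 2 stands behind most of the difference of 0.18 ± 0.11 (adjusted p = 0.491 in limma), which was 0.058 without that array.

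Ddb2, the damage-recognition subunit that starts nucleotide excision repair of ultraviolet lesions, was the 1 gene of the 9 whose groups were separate. Control arrays read 5.59, 5.51 and 5.72, those labelled Myc knockout 5.06, 5.38 and 5.15. The groups did not overlap, the knockout label being on the low side, as in 10.6% of all genes. Means were 5.61 ± 0.10 and 5.20 ± 0.16 (SD, n = 3), a 1.33-fold lower level with a 95% confidence interval of 1.12 to 1.57. It did not pass over all genes (limma's unadjusted p = 0.00548, adjusted p = 0.156), and it ranked 814 of 23185 genes by p. Across 13 alternative fits the difference stayed between −0.50 and −0.34, with limma's unadjusted p from 0.00178 to 0.0232 and adjusted p from 0.0645 to 0.336. Whether Ddb2 differed from the other 8 genes was not tested.

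Sesn1, which encodes a sestrin that restrains mTORC1, read 6.43, 6.40 and 6.51 in control arrays, set against 6.43, 6.35 and 6.37 under the knockout label. The groups overlapped, and the difference was −0.061 ± 0.060. For the 8 genes other than Ddb2, the 95% confidence intervals together reached from 1.20-fold lower (Zmat3) to 1.36-fold higher (Aen).

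No array stood apart over the 9 genes together. Their mean deviation from each gene's own mean was 0.052, −0.040 and 0.036 in control replicates 1, 2 and 3, and −0.037, −0.00026 and −0.011 in the replicates labelled Myc knockout. The highest and the lowest of these 6 means were both controls. The SD within a group ran from 0.012 (Phlda3 in controls) to 0.21 (Aen in controls). Aen and Ddb2 had the widest ranges over the 6 arrays, 0.49 and 0.66; in Ddb2 most of it lay between the groups, in Aen within the controls.

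**Figure D2:**
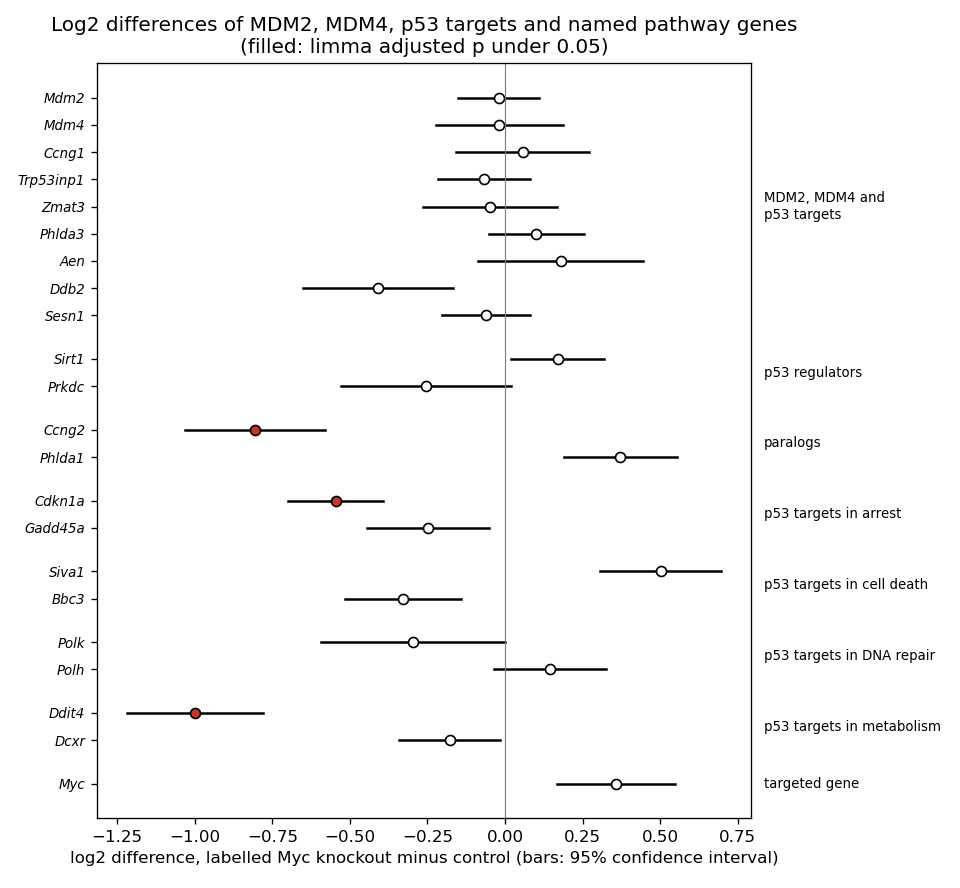
Log2 difference (arrays labelled Myc knockout minus control) with its 95% confidence interval for the 9 genes, for the pathway genes named by rule and for Myc. Filled points passed limma's adjusted p under 0.05: Ccng2 (−0.81), Cdkn1a (−0.55) and Ddit4 (−1.0); none of the 9 genes at the top did.

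Genes upstream of p53 did not pass either. Of 24 listed kinases, acetyltransferases, deubiquitinases, ubiquitin ligases and MDM2-binding proteins, 22 were measured, and 0 passed in limma; at an unadjusted p under 0.05, 1 was higher and 0 were lower (4.55%, against 14.9% of all genes). The groups did not overlap for 1 on the higher and 6 on the lower side, where all genes gave 9.25% and 10.6%. Their differences ran from −0.25 to 0.33 with a median of −0.065, and 16 of the 22 were negative. The median stayed below 0 under median centring (−0.090) and cyclic loess (−0.043), and that of all genes at or above the median level was −0.030. Sirt1, the gene of a deacetylase of p53, read 7.94, 7.87 and 7.99 in control arrays, set against 8.04, 8.13 and 8.14 under the knockout label (0.17 ± 0.063, limma's adjusted p = 0.291). Prkdc, the gene of the DNA-dependent protein kinase, differed by −0.25 ± 0.11. Neither passed, although the groups did not overlap for either.

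Paralogs of the 9 genes and of Trp53 gave the first call near the circuit. Ccng2, the gene of cyclin G2 and a close relative of Ccng1, fell 1.75-fold: control arrays read 7.12, 7.32 and 7.19, those labelled Myc knockout 6.27, 6.56 and 6.39 (−0.81 ± 0.094, limma's adjusted p = 0.0353). The groups were far apart, while those of Ccng1 overlapped (0.057 ± 0.090); the difference between the paralogs was not tested. Phlda1, a relative of Phlda3, read 7.03, 6.97 and 7.11 against 7.29, 7.43 and 7.50 without passing (0.37 ± 0.076, adjusted p = 0.108 in limma), and the groups did not overlap. With genes below the median level left out it passed (adjusted p = 0.0397 in limma), as did Myc (0.0487). Sesn2 and Sesn3, relatives of Sesn1, stood at 0.00010 ± 0.14 and −0.029 ± 0.060. Of the 10 paralogs, 1 was called lower and 0 were called higher, against 0.453% of all genes called. Unadjusted, 1 was lower and 1 higher, or 20% against 14.9% of all genes.

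**Figure D3:**
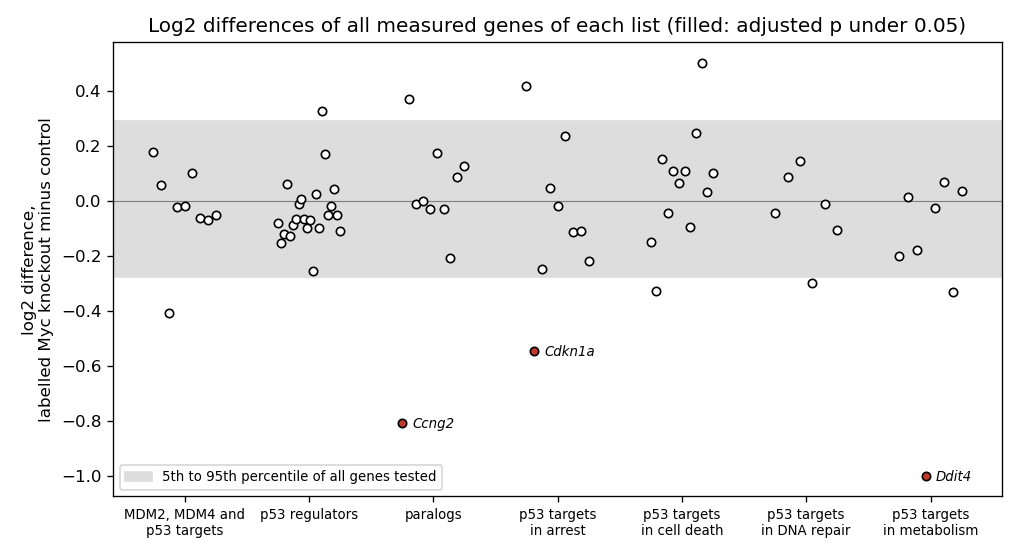
Log2 difference of every measured gene of each list, with the 5th to 95th percentile of all genes tested (−0.28 to 0.29) in grey and genes that passed limma's adjusted p under 0.05 filled. Of the 9 genes in the first column, only Ddb2 (−0.41) lies outside the grey band.

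Other p53 targets were measured in 35 of 38 listed genes, of which 2 were called lower and 0 higher (0.198% of all genes were called lower). Unadjusted, 2 were higher and 6 lower with p under 0.05, 22.9% against 14.9% of all genes. By mean level only 3 of the 35 were below the array medians, so 14.9% is a low background for them. Their median was −0.018, and 16 were positive and 19 negative.

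Among 9 targets in arrest, Cdkn1a fell 1.46-fold. Control arrays read 8.37, 8.34 and 8.41, those labelled Myc knockout 7.73, 7.85 and 7.89, and the groups did not overlap (−0.55 ± 0.064, limma's adjusted p = 0.0353). Gadd45a, a stress gene that also slows the cycle, read 6.01, 6.20 and 6.01 against 5.80, 5.92 and 5.75 and did not pass (−0.25 ± 0.081, adjusted p = 0.249 in limma). The 9 had a median of −0.11, which leaving out 1 array moved to between −0.15 (without Myc knockout replicate 3) and −0.017 (without control replicate 1).

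Targets in cell death pointed both ways, and of 12 measured 0 passed in limma, although 2 on each side had an unadjusted p under 0.05 (33.3%, against 14.9% of all genes). Siva1, a proapoptotic gene, read 6.00, 6.06 and 6.17 in control arrays, set against 6.70, 6.56 and 6.48 under the knockout label (0.50 ± 0.081, limma's adjusted p = 0.0727). Bbc3, the gene of the BH3-only protein PUMA, read 3.81, 3.76 and 3.96 against 3.52, 3.44 and 3.59, close to the array medians (−0.33 ± 0.078, adjusted p = 0.146 in limma). The groups did not overlap for either gene, and the values of Siva1 were on the high side and those of Bbc3 on the low side. Siva1 passed when the prior variance could follow intensity (adjusted p = 0.0359) and when the genes below the median level were left out (adjusted p = 0.0232).

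Targets in repair and metabolism gave a single call. Of 6 repair genes 0 passed in limma and 0 had an unadjusted p under 0.05; Polk and Polh, genes of translesion polymerases, differed by −0.30 ± 0.12 and 0.15 ± 0.075. Of 8 metabolic targets 1 fell: Ddit4, an inhibitor of mTORC1 that hypoxia and other stresses also raise, read 6.82, 6.82 and 6.79 in control arrays, set against 5.92, 5.90 and 5.62 under the knockout label. This was a 2.00-fold lower level (−1.0 ± 0.092, limma's adjusted p = 0.0205), with groups far apart. Dcxr, the gene of a carbonyl reductase, differed by −0.18 ± 0.068 without passing.

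**Figure D4:**
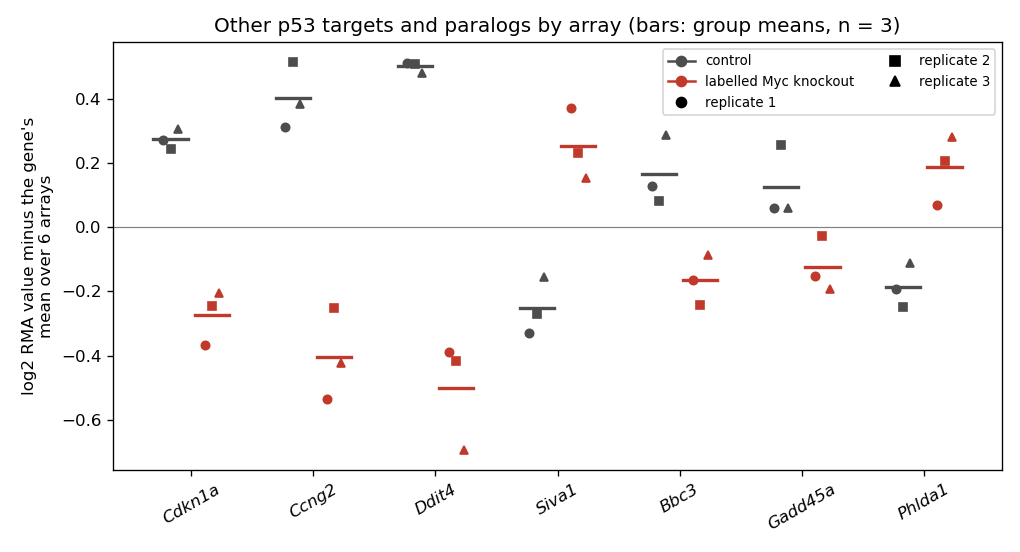
Log2 RMA value minus the gene's mean over the 6 arrays for other p53 targets and paralogs, with control arrays in grey, arrays labelled Myc knockout in red and bars for group means. The groups do not overlap for any of the 7 genes, while limma's adjusted p was under 0.05 for Cdkn1a, Ccng2 and Ddit4 and not for Siva1, Bbc3, Gadd45a and Phlda1. The 7 were picked from the genes named by rule, mostly for small p, so their separation largely follows from that choice. Of all 35 other p53 targets, groups were separate for 3 on the higher and 7 on the lower side. Of the 10 paralogs they were separate for 1 and 2, where all genes gave 9.25% and 10.6%.

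The 3 calls rest on all 6 arrays. Leaving out any single array raised limma's adjusted p to between 0.0912 and 0.174 for Cdkn1a, 0.105 and 0.174 for Ccng2 and 0.0724 and 0.157 for Ddit4. Their log2 differences moved little, from −0.58 to −0.50, from −0.88 to −0.74 and from −1.06 to −0.90. Of the 9 genes, Mdm2 (−0.041 to 0.0044), Sesn1 (−0.086 to −0.031) and Trp53inp1 (−0.10 to −0.032) stayed near 0 in the same fits. Mdm4 (−0.076 to 0.049), Ccng1 (−0.030 to 0.12) and Zmat3 (−0.11 to 0.027) changed sign, as did Mdm2. Ddb2 (−0.50 to −0.34), Aen (0.058 to 0.25) and Phlda3 (0.064 to 0.15) kept their signs without passing.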

How the data were processed

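RMA produced the log2 values that the authors deposited, per the submitters' processing notes, which also name limma 3.14.4. RMA brings the probe signals of all arrays to 1 distribution, so a shift shared by all transcripts is removed. The deposited gene values still differed somewhat in spread. Their upper quartiles were 5.76 to 5.78 in controls and 5.69 to 5.74 in the arrays labelled Myc knockout. Lower quartiles were 2.04 to 2.07 and 2.10 to 2.13. The array version, probe sets and build were not given in the sources used here. Of 25206 probe sets, 23185 had 1 gene symbol in the platform annotation, 0 several and 2021 none. All 23185 matched RefSeq gene numbers (GRCm38.p6). No genes were filtered.

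Groups came from the sample titles. limma 3.58.1 in R 4.3.3 (lmFit and eBayes, no covariate, two-sided, Benjamini-Hochberg over 23185 genes) gave differences, SEs and 95% confidence intervals, and was tested on simulated data. Members and lists were chosen with earlier results of these data known. Named genes were the 9 members, Myc, Cdkn1a and, of each other list, every gene past the threshold, filled up to 2 by the smallest p; Sesn2, Sesn3 and marker genes were named in addition, after their values were seen. A search for genes with a profile like that of Trp53 was not made. Of the other lists, Trp53rk, Rpl11, Bax, Gls2, Fdxr and Lyz2 are not analysed here. Arrays have no read depth, and their number limits the precision. Figures used matplotlib 3.10.9.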

Additional observations from a re-analysis of the deposited data

How the results depend on the processing

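In all 13 alternative fits, and at an adjusted p under 0.1, 0 of the 9 genes passed in either direction. Over all genes, 59 rose and 46 fell as reported. The replicate block gave 0 and 0, an intensity trend 162 and 208, genes at or above the median level 204 and 345, and an adjusted p under 0.1 gave 185 and 228. Leaving out 1 array gave 0 to 2 higher and 0 to 1 lower, with a median of the 9 genes between −0.057 and −0.017. Median centring (61 and 61) and cyclic loess (70 and 38) kept the counts within 1.5 times. Signs turned for 4 genes, none of them a call, and the cause was not tested. Cyclic loess gave 0.0039 for Mdm2 and 0.015 for Mdm4. Leaving out 1 array gave −0.041 to 0.0044 for Mdm2, −0.076 to 0.049 for Mdm4, −0.030 to 0.12 for Ccng1 and −0.11 to 0.027 for Zmat3; Mdm4 was positive in 3 of these fits (0.049, 0.0090 and 0.013). The labels do not say whether equal replicate numbers pair the arrays. Same-numbered deviations correlated over genes at −0.070, −0.012 and −0.017, which cannot settle this with 3 arrays per group. With the replicate block, Cdkn1a, Ccng2 and Ddit4 had limma's adjusted p = 0.158, 0.114 and 0.114. Signal over background was not measured here, so what it limits for dim genes was not tested.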
